A study of Mus musculus with 2 samples.

Results

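The cells described here were the dendritic cells of mouse colorectal tumours, 176 cells out of the 26153 cells kept from 2 single-cell RNA libraries. The library labelled WT held 88 of them among 12270 cells, and the library labelled STK25 wKO 88 among 13883. Members were chosen by UMI counts: a cell qualified if it carried at least 2 UMIs (unique molecular identifiers, each counting 1 captured RNA molecule) summed over Flt3, Xcr1, Clec9a, Cd209a, Zbtb46, Fscn1 and Siglech, no UMI of Cd3e, Cd3d, Cd79a or Ms4a1, fewer than 5 UMIs of C1qa, C1qb and C1qc, fewer than 12 UMIs of Epcam, Krt8, Krt18 and Cldn7, and at least 5 UMIs of Ptprc, H2-Aa and Cd74. The rule therefore used levels measured in these same cells, and the genes it used are given below as a description.

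Both libraries came from tumours that azoxymethane and dextran sulphate sodium, a carcinogen and a colitis-inducing agent, had raised in mice. One group was wild type and the other a whole-body STK25 knockout, STK25 being a serine/threonine kinase, and both groups shared the tumour treatment. The tumours of each group were pooled and dissociated with trypsin before sequencing of the 3′ ends of RNAs on the 10x platform, and the series text names a sort on mCherry without saying which cells it kept. There was 1 library per group, the number and age of the animals and the knocked-out part of the gene were not given in the sources used here, and no difference between the libraries could be tested against animals.

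The library labelled WT held 12542 barcodes and 38737373 UMIs and that labelled STK25 wKO 14168 barcodes and 66297749 UMIs, with medians of 1383 and 2091 UMIs for each kept cell. The libraries shared 230 barcodes, none of them that of a dendritic cell in both. The Stk25 transcript stood at 118 CPM (UMIs per 1000000 UMIs of the cells summed; 95% interval 115 to 122) in the library labelled WT. The library labelled STK25 wKO had 127 CPM (124 to 130), so the transcript count went against the second label and the libraries are called by their labels throughout. Counts at the 3′ end may not show a deletion elsewhere in the gene. In pairs of values below, that of the library labelled WT comes first unless stated otherwise. All intervals given here are exact 95% intervals and cover counting error only, neither the spread between animals nor that between cells.

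Dendritic cells take up antigen in tissues, carry it to lymph nodes and present it to T cells on MHC class II and class I molecules. Type 1 conventional dendritic cells (cDC1), marked by Xcr1 and Clec9a, take up dead cells and cross-present their antigens to CD8 T cells, whereas type 2 cells (cDC2), among them those with the lectin Cd209a, mainly serve CD4 T cells. On maturation both kinds lower their uptake, raise costimulatory molecules and gain the chemokine receptor Ccr7 and the actin-bundling protein Fscn1, which go with migration; Siglech marks plasmacytoid dendritic cells, a source of type I interferon.

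Cells were placed in groups by genes of the rule and Ccr7, so the groups differ in these genes by construction. Each cell was placed with the largest of 4 sums: Xcr1 with Clec9a, Cd209a alone, Ccr7 with Fscn1, and Siglech alone. Cells labelled WT comprised 40 Xcr1/Clec9a cells, 11 Cd209a cells, 26 Ccr7/Fscn1 cells, 1 Siglech cell and 10 cells with none of these genes, and cells labelled STK25 wKO comprised 33, 12, 36, 0 and 7. No cell was tied, and UMIs of more than 1 of these sums occurred in 6 and 3 cells. Xcr1 and Clec9a were both detected in 14 cells of each library, Clec9a without Xcr1 in 25 and 17, and Xcr1 without Clec9a in 4 and 5. Ccr7 and Fscn1 were both detected in 17 and 15 cells, Ccr7 without Fscn1 in 6 and 5, and Fscn1 without Ccr7 in 6 and 16. The genes shared by conventional dendritic cells, the growth factor receptor gene Flt3 and the transcription factor gene Zbtb46, were seen singly or together in 73 and 62 of the 88 cells, and Ptprc, the pan-leukocyte gene, in 73 and 61.

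**Figure D1:**
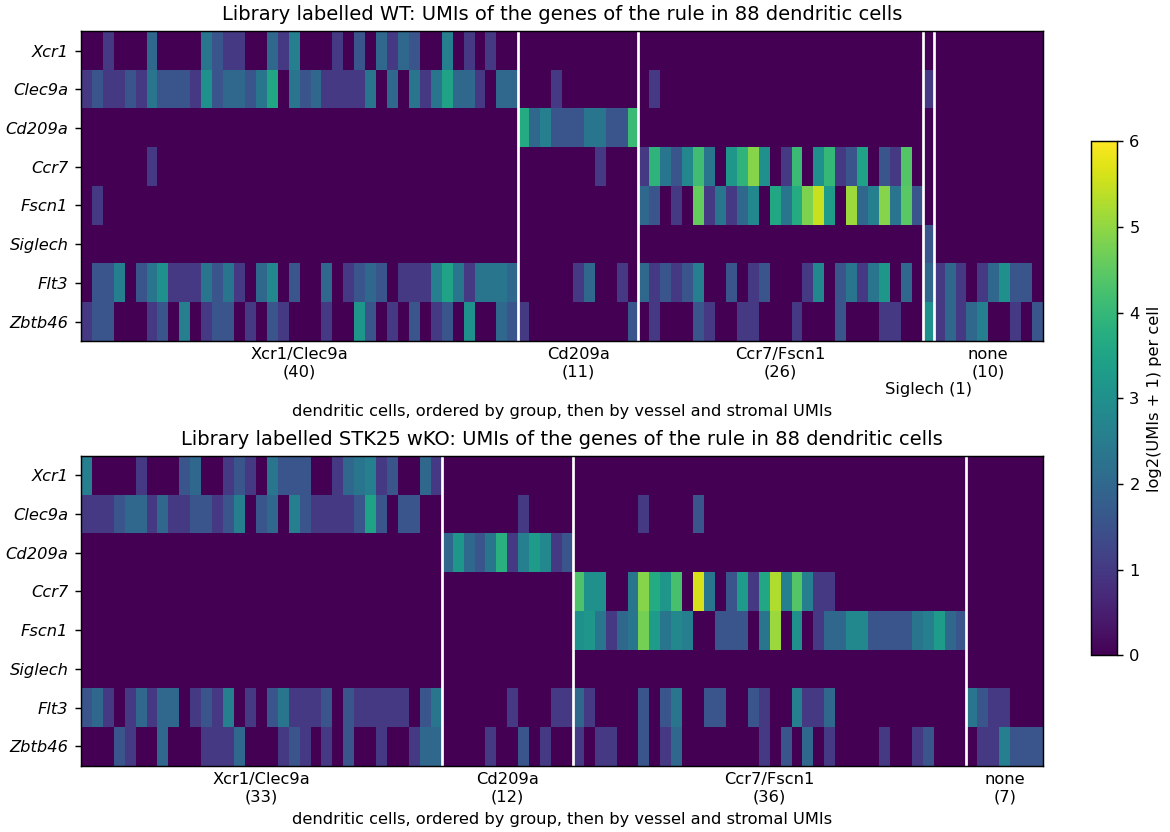
UMIs of the 8 genes that define the cells and their groups (rows, log2 of UMIs plus 1) in each of the 88 dendritic cells (columns), with the library labelled WT at the top and that labelled STK25 wKO at the bottom, with white lines between groups and cells within a group ordered by their vessel and stromal UMIs. The blocks of Xcr1 and Clec9a, of Cd209a, and of Ccr7 and Fscn1 follow from the grouping, since each cell was placed by these same genes. At the right end of the Ccr7/Fscn1 block of the lower panel Fscn1 stood without Ccr7.

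The marker limit cut through a continuous range. Cells that met every other condition numbered 43 and 70 with 1 UMI of the marker sum, just outside the limit, 20 and 25 with 2 UMIs, just inside it, and 68 and 63 with 3 or more. H2-Ab1, a class II chain outside the rule, was detected in 21 of the 43 and 55 of the 70 cells just outside and in 16 of the 20 and 19 of the 25 cells just inside. Of the 216 and 254 cells that reached the marker sum, 94 and 117 failed the immune condition, 18 and 53 the epithelial one, 24 and 12 the lymphocyte one and 5 and 7 the C1q one, and a cell could fail more than 1.

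Some cells of the Ccr7/Fscn1 group went against the name dendritic cell, most of them in the library labelled STK25 wKO. In that library 12 of the 36 Ccr7/Fscn1 cells carried 5 or more UMIs of the vessel and stromal marker lists (17 genes, such as Pecam1, Cdh5, Kdr, Col1a1 and Dcn), and none of these 12 had a UMI of Ccr7. In the library labelled WT 2 of the 26 Ccr7/Fscn1 cells did, 1 of them without Ccr7. Over all members such cells numbered 3 of 88 labelled WT and 14 of 88 labelled STK25 wKO, of which 2 and 4 had a UMI of Ptprc. Endothelial markers reached 5 UMIs in 2 and 12 of them and at most 70 and 174 UMIs in a cell, and stromal markers reached 5 UMIs in 1 and 5 and at most 8 and 447. Whether these are vessel and fibroblast cells that express Fscn1 or droplets with more than 1 cell was not tested. Lists and counts between the libraries are therefore given for all members and without these 17 cells, which leaves 85 cells labelled WT and 74 labelled STK25 wKO. Gene levels compared between groups, and single genes within groups, leave the 17 cells out unless all members are named. That exclusion was chosen after seeing the data.

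**Figure D2:**
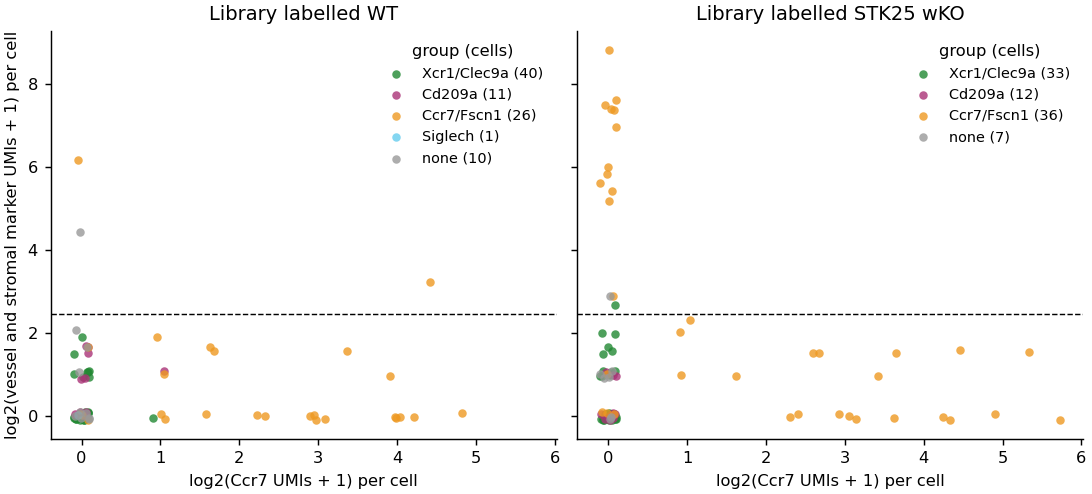
Ccr7 UMIs per cell (log2 of UMIs plus 1, horizontal) against UMIs summed over the vessel and stromal marker lists (vertical, same scale, points shifted slightly to show ties) for the 88 members of each library, coloured by group, with the dashed line between 4 and 5 UMIs. Above the line lie 3 cells labelled WT and 14 labelled STK25 wKO; in the latter panel the 12 Ccr7/Fscn1 cells above the line have no Ccr7.

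The other cells carried dendritic cell genes that the rule did not use. The summed level of 14 genes shared by dendritic cells, among them Cst3, Itgax, Batf3 and Id2, was 19732 and 25315 CPM in the 85 and 74 cells, against 3882 and 5116 CPM in C1q macrophages, 1282 and 1667 CPM in T cells and 1525 and 1443 CPM in B cells of the same libraries. Cst3, which encodes the protease inhibitor cystatin C, carried most of this sum, at 16449.7 and 21934 CPM against 1173 and 1928 CPM in the macrophages. Batf3, a transcription factor gene of cDC1 development, stood at 231 and 204 CPM against 21.7 and 29 CPM, and Id2, which encodes a further regulator of their development, at 367 and 458 CPM against 98.7 and 179 CPM. Flt3, a gene of the rule, was at 323 and 191 CPM in the dendritic cells and at 2.41 and 1.98 CPM in the macrophages. Not every gene of the list was higher in dendritic cells. Itgax, the CD11c gene, was at 179.8 and 179.6 CPM in dendritic cells and at 325 and 256 CPM in macrophages.

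Markers of other cells were present at low levels and differed between the libraries. In the 85 and 74 cells the summed levels were 394 and 565 CPM for 12 macrophage markers, 453 and 569 CPM for 10 monocyte markers, 174 and 646 CPM for 10 neutrophil markers and 863 and 1231 CPM for 11 epithelial markers. Those of 12 B cell, 16 T and NK cell and 9 mast cell markers were 218 and 164 CPM, 121 and 89.8 CPM and 7.65 and 19.7 CPM. Neutrophil markers differed most between the libraries among these sets. The neutrophil gene S100a8 had a UMI in 3 of 85 and 37 of 74 dendritic cells, and in 5.35% and 57.4% of T cells, which should lack it. Dendritic cells had medians of 4931 and 4985 UMIs and T cells of 2400 and 2576.5. After thinning to 1000 UMIs a cell, with shallower cells left out (1 and 0 dendritic cells, 22 and 5 T cells), the shares were 2.38% and 13.5% of dendritic cells and 2.04% and 29.9% of T cells. The S100a8 share of dendritic cells in the library labelled STK25 wKO thus lay below that of T cells, and no expression by dendritic cells is read from it. Retnlg, Cxcr2, Mmp8 and Ngp were at 0 in the cells labelled WT, and Cxcr2, Mmp9 and Mmp8 in those labelled STK25 wKO.

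Dendritic cells made up similar small shares of both libraries. They were 0.717% (0.576 to 0.883) of the cells labelled WT and 0.634% (0.509 to 0.780) of those labelled STK25 wKO, a ratio of 0.884 (0.650 to 1.20), and without the cells carrying vessel or stromal RNA 0.693% and 0.533%, a ratio of 0.769 (0.556 to 1.06). Both intervals of the ratio include 1. The other myeloid cells differed more. C1q macrophages numbered 77 and 310 and monocytes with C1q-low macrophages 94 and 375, so that there were 114 dendritic cells per 100 C1q macrophages among cells labelled WT and 28.4 among those labelled STK25 wKO. T cells numbered 561 and 446 and B cells 135 and 203. Dissociation, the sort and the cell-calling step also set such shares, and their part was not tested.

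The balance of the groups depended on the cells with vessel or stromal RNA. Among all members the Ccr7/Fscn1 cells were 29.5% (20.3 to 40.2) of dendritic cells labelled WT and 40.9% (30.5 to 51.9) of those labelled STK25 wKO, and without those cells 24 cells in each library, 28.2% (19 to 39) and 32.4% (22 to 44.3). Xcr1/Clec9a cells were 45.5% (34.8 to 56.4) and 37.5% (27.4 to 48.5) of all members, and 47.1% and 43.2% without those cells. Cd209a cells were 12.5% (6.41 to 21.3) and 13.6% (7.25 to 22.6) of all members, and 13.1% and 8.22% after the cells with the highest doublet scores were removed. With Fscn1 and Siglech left out of the marker sum, which removes cells that entered through Fscn1, the Ccr7/Fscn1 cells were 18.4% and 21.2% of members. In each group the intervals of the 2 libraries overlapped. The ratio of Xcr1/Clec9a cells among all kept cells, STK25 wKO over WT, was 0.729 (0.446 to 1.19), that of Cd209a cells 0.964 (0.389 to 2.41) and that of Ccr7/Fscn1 cells 1.22 (0.719 to 2.11), or 0.884 (0.481 to 1.63) without the cells carrying vessel or stromal RNA.

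**Figure D3:**
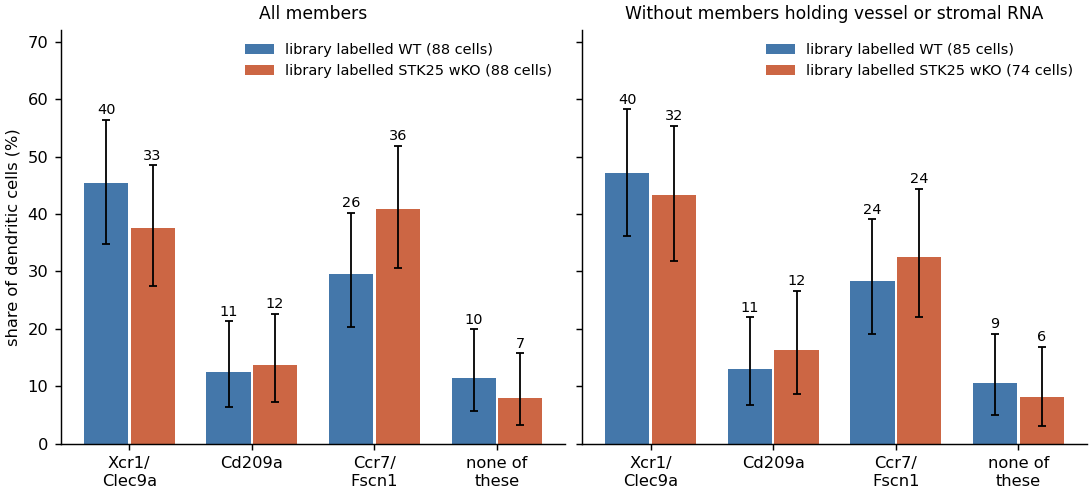
Share of dendritic cells (%) in each group for the library labelled WT (blue) and the library labelled STK25 wKO (orange), for all members (left) and without members holding vessel or stromal RNA (right); bars show the share, lines its exact 95% interval and numbers the cells. The excess of Ccr7/Fscn1 cells labelled STK25 wKO on the left, 36 against 26 cells, gives way to 24 and 24 cells on the right, and the intervals overlap in every group.

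The Xcr1/Clec9a cells, 40 labelled WT and 32 labelled STK25 wKO, carried the genes of cDC1 in both libraries. Compared with the other dendritic cells of the same library, 12 of the 13 cDC1 genes that could be compared (of 17 in the list) were at least 1 higher on the log2 scale (1 CPM added) in both libraries, against 4.34% of the 3157 genes compared, with list medians of 2.73 and 2.30 against 0.011 and 0.027 for all genes. A gene could be compared if it had at least 50 UMIs in all and reached 20 CPM in the group or in the other cells of each library, and the groups were cut from the same cells, so these counts describe the cells and test nothing. Irf8, the transcription factor gene on which cDC1 depend, stood at 1679 and 1258 CPM against 312 and 331 CPM in the other dendritic cells. Wdfy4, needed for cross-presentation, was at 2016 and 1118 CPM against 468 and 335 CPM, and Cadm1, a cell adhesion gene, at 638 and 279.5 CPM against 20 and 18.1 CPM. Itgae, the CD103 gene, was at 480.1 and 517 CPM against 28 and 109 CPM, and Tlr3, a receptor for double-stranded RNA, at 106 and 97.4 CPM against 12 and 4.53 CPM. Batf3 was the member past the limit in neither library, at log2 ratios of 0.38 and 0.76.

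Outside the rule and the list, the genes that led these cells over the other dendritic cells in both libraries were Agpat3, a phospholipid acyltransferase gene (176 and 161 CPM, log2 ratios 4.30 and 4.87), Ctla2b (128 and 136 CPM, 3.84 and 3.76), Cyp26b1, whose product breaks down retinoic acid (40.3 and 199 CPM, 5.37 and 3.78), Acvrl1, a receptor gene for bone morphogenetic proteins (125 and 139.8 CPM, 3.27 and 3.27), and Rtl8c (172 and 169 CPM, 5.11 and 3.15). The list members Ppt1, a lysosomal thioesterase gene, Snx22 and Rtl8b also stood among the 12 leading genes, with Xcr1, Clec9a, Cadm1 and Tlr3. The checkpoint receptor genes Havcr2, at 231 and 136 CPM against 68 and 58.9 CPM, and Btla, at 279 and 292 CPM against 124 and 131 CPM, were past the limit in both libraries. They were 2 of 11 costimulatory and checkpoint genes compared, against 4.34% of all genes. More of that list, 5 genes (Cd40, Icosl, Tnfsf9, Cd274 and Pdcd1lg2), were past it downward in both libraries, against 7.19%. Of the 27 maturation genes compared, 21 were at least 1 lower in both libraries, against 7.19% of all genes.

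The Cd209a cells, 11 and 12, carried genes of cDC2 and several cytokine genes. Of the 18 cDC2 genes only 8 could be compared, and 5 of these were at least 1 higher in both libraries, against 3.36% of 3156 genes, with medians of 1.69 and 1.64 against 0.013 and -0.13. They were Mgl2 and Clec10a, genes of galactose-binding lectins, at 478 and 437 CPM and 108 and 291 CPM, Sirpa, the cDC2 surface receptor gene, at 231 and 146 CPM, the transcription factor gene Klf4 at 108 and 255 CPM, and Tnip3, an inhibitor of NF-κB signalling, at 401 and 237 CPM. The values in the other dendritic cells were 65.5 and 34.8 CPM for Mgl2, 32.8 and 29.9 CPM for Clec10a and 34.9 and 34.8 CPM for Sirpa. With all members Klf4 was not past the limit in both libraries. Irf4, Itgam and 8 further list members were too low to compare. The cDC1 genes were low here: 12 of 13 were at least 1 lower in both libraries, against 6.97% of all genes. Itgam, the CD11b gene, had 13 and 7 UMIs here and 2 and 4 in the Xcr1/Clec9a cells.

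Il1b, the gene of interleukin 1β, was at 2838 and 2548 CPM in the Cd209a cells and at 269 and 976 CPM in the other dendritic cells; 10 of 11 and 8 of 12 cells carried it. The cytokine gene Osm was at 169.7 and 473 CPM against 15.3 and 19.9 CPM and Il1rn, which encodes the interleukin 1 receptor antagonist, at 185 and 218 CPM against 52.4 and 69.7 CPM. These were the 3 of 5 cytokine genes compared that were past the limit upward in both libraries, against 3.36% of all genes, and 1, Il12b, was past it downward, against 6.97%. Il1rn was not particular to Cd209a cells. In Ccr7/Fscn1 cells 2 of the 5, Il1rn and Il12b, were past it upward in both libraries, against 6.49% of all genes. With all members these were Il15 and Tnf of 7, against 7.88%. The other leading genes were Cd209c, a sister gene of Cd209a (833 and 237 CPM), Fcer1g, the Fc receptor γ chain gene (1172 and 1292 CPM), Socs3 (309 and 509.5 CPM), Cebpb (278 and 419 CPM), Fosb (586 and 491 CPM), Atf3 (1079.9 and 1838 CPM), Rnf149 (201 and 419 CPM) and Cybb, an NADPH oxidase subunit gene (447 and 237 CPM). Their log2 ratios to the other dendritic cells lay between 1.98 and 8.03. Cd209a and Cd209c are close relatives, and how reads that match both were counted was not checked. Several of these genes, Il1b and Cybb among them, are also genes of monocytes and macrophages: Il1b was at 2071 and 4969.7 CPM in the monocyte class and Cybb at 369 and 583 CPM, and what part monocyte-derived cells took was not tested. Among the named groups, the summed neutrophil and monocyte lists were highest in the Cd209a cells in both libraries, and the macrophage list was not. The neutrophil list stood at 539.9 and 983 CPM in Cd209a, 55 and 326 CPM in Xcr1/Clec9a and 74.3 and 706 CPM in Ccr7/Fscn1 cells, with 7 and 5 of its 10 genes at 0 in Cd209a cells. In the cells with none of the group genes it was at 515 and 2468 CPM, above the Cd209a cells in the library labelled STK25 wKO. There 1 of those cells held 53 of the 66 UMIs. The monocyte list was at 1111 and 819 CPM, 414 and 644 CPM and 206 and 389 CPM in the same order, with Vcan and Chil3 at 0 in Cd209a cells of both libraries, and the macrophage list at 509 and 691 CPM, 172 and 368 CPM and 966 and 871 CPM. Their part in the cytokine levels was not tested.

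The Ccr7/Fscn1 cells, 24 in each library, carried the genes of mature, migratory dendritic cells. Of the 27 maturation genes compared (of 32), 24 were at least 1 higher in both libraries than in the other dendritic cells, against 6.49% of 3157 genes, with medians of 3.22 and 2.66 against -0.20 and -0.10 for all genes. With all members, 19 of 28 were, against 7.88% of 3911 genes, with medians of 3.08 and 1.83. Il4i1, which encodes an enzyme that degrades phenylalanine, was at 578 and 569 CPM against 7.47 and 0 CPM; Cacnb3, a calcium channel subunit gene, at 677 and 367 CPM against 2.49 and 0 CPM. Socs2, an inhibitor of cytokine signalling, was at 215 and 202 CPM against 4.98 and 12.6 CPM, and Relb, the NF-κB subunit gene of mature dendritic cells, at 529 and 403 CPM against 47.3 and 62.9 CPM. Mreg, Nudt17, Tmem123, Apol7c and Zmynd15, all of the list, and Tmcc3, outside it, completed the 12 leading genes, with Fscn1, Ccr7 and the chemokine gene Ccl5. Birc3, Cd83 and Ccl17 were the 3 members not past the limit in both libraries, at log2 ratios of 1.48 and -0.55, 0.85 and 0.56 and 0.59 and 2.29.

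**Figure D4:**
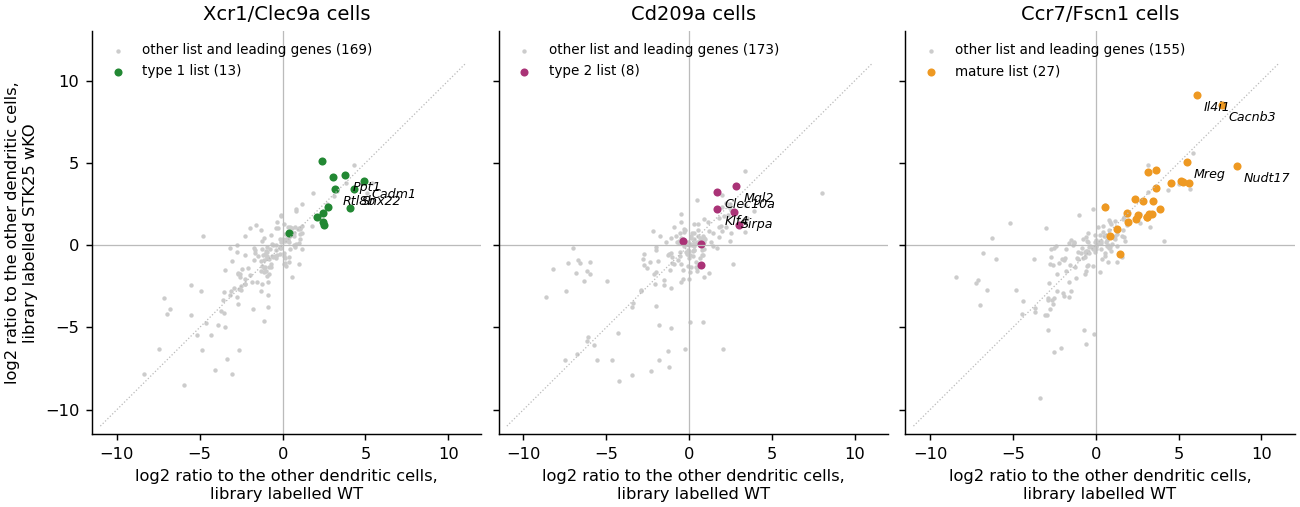
Log2 ratio (1 CPM added) of each group to the other dendritic cells of the same library, for the library labelled WT (horizontal) against that labelled STK25 wKO (vertical), without members holding vessel or stromal RNA; coloured points are the cDC1, cDC2 and maturation genes outside the rule in their own groups, grey points the other listed and leading genes, and the dotted line marks equal ratios. The cDC1 genes (13) and the maturation genes (27) lie above 0 in both libraries except 1 maturation gene, Birc3, while the 8 cDC2 genes spread from below 0 to above 3.

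Genes that signal to T cells were shared unevenly. In the Ccr7/Fscn1 cells, 5 of 11 costimulatory and checkpoint genes compared were at least 1 higher in both libraries, against 6.49% of all genes: Cd40 at 281 and 209 CPM, Cd274, the PD-L1 gene, at 586 and 742 CPM, Pdcd1lg2, the PD-L2 gene, at 165 and 281 CPM, Cd200 at 107 and 274 CPM, and Icosl, the ligand of ICOS, at 248 and 50.4 CPM. In the Xcr1/Clec9a cells these stood at 25.7 and 12.7, 69.6 and 199, 18.3 and 76.2, 29.3 and 50.8 and 22 and 4.24 CPM. Cd86, a ligand of CD28, was less unequal over the groups, at 242 and 322 CPM in Xcr1/Clec9a, 262 and 364 in Cd209a and 405 and 432 in Ccr7/Fscn1 cells. Tnfsf9, the 4-1BB ligand gene, was past the limit in both libraries in Cd209a cells, at 154 and 218 CPM. With all members, 3 of 12 genes (Cd40, Cd200, Tnfsf9) were past it upward in Ccr7/Fscn1 cells in both libraries, against 7.88% of all genes. Cd274, Pdcd1lg2 and Icosl were then not past it in both. Tnfsf4, the OX40 ligand gene, had no UMI in any dendritic cell of either library.

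Several class II genes were lower in the Ccr7/Fscn1 cells and a few were not. H2-Ab1 was at 7605 and 8640.1 CPM in Xcr1/Clec9a cells, 7497 and 7479 CPM in Cd209a cells and 2015 and 4298 CPM in Ccr7/Fscn1 cells. The summed level of the 12 genes of class II presentation was 16878 and 19097 CPM in Xcr1/Clec9a, 19083 and 18688 CPM in Cd209a and 8606 and 12521 CPM in Ccr7/Fscn1 cells. Of these 12 genes, 5 were at least 1 lower in Ccr7/Fscn1 cells in both libraries, against 9% of all genes: Ciita, the master regulator of class II genes (74.3 and 122 CPM against 441 and 286 CPM), March1, a ubiquitin ligase gene for class II molecules (24.8 and 7.2 CPM against 217 and 154 CPM), the peptide-loading genes H2-DMa (116 and 180.0 CPM) and H2-DMb1 (107 and 86.4 CPM), and H2-Ob (33 and 50.4 CPM). The class II chain genes H2-Eb1 and H2-Ab1 were lower by less than 1 in at least 1 library, at log2 ratios of -0.63 and -0.41 and -1.89 and -0.92. With all members H2-Ab1 and H2-Oa were also at least 1 lower in both libraries. Ctss, Ifi30 and Lgmn, genes of lysosomal enzymes, were above 0 in both libraries, at log2 ratios of 0.094 and 0.13, 0.63 and 0.60 and 0.89 and 1.26. Of 14 class I presentation genes, Nlrc5, the regulator of class I genes, and Psme2 were past the limit upward in Ccr7/Fscn1 cells, against 6.49% of all genes, and Pdia3 in Xcr1/Clec9a cells, against 4.34%. Pdia3 was past it downward in the former and Nlrc5 in the latter. With all members, 1 of 15 genes, B2m, was past it upward in Ccr7/Fscn1 cells in both libraries, against 7.88% of all genes.

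Several chemokine genes were also higher in the Ccr7/Fscn1 cells than in the other dendritic cells. Of 8 compared, Ccl22, Ccl5, Cxcl16 and Cxcl2 were at least 1 higher in both libraries, against 6.49% of all genes, at 529 and 1296 CPM, 3130.1 and 662 CPM, 529 and 526 CPM and 273 and 554 CPM. Ccl4 was at least 1 lower in both, at 322 and 144 CPM against 749 and 579 CPM. With all members, 3 of 10 chemokine genes (Cxcl1, Ccl22, Ccl5) were at least 1 higher in both libraries, against 7.88% of all genes. Cxcl16, Cxcl2 and Ccl4 were then not past the limit in both. A single cell held most of the Ccl5 UMIs labelled WT, as given below. In cells thinned to 1000 UMIs, Cxcl2 was detected in 8.91% and 37.2% of T cells, which should lack it. It was detected in 5.95% and 23% of dendritic cells. What part RNA from outside the cell took in the Cxcl2 values was not tested. Ccl17 and Ccl22 are ligands of CCR4, carried by regulatory and other T cells, and Cxcl16 is the ligand of CXCR6. Il12b, the p40 chain gene of interleukins 12 and 23, had 24 and 13 UMIs in Ccr7/Fscn1 cells, in 1 and 4 cells, and 6 and 9 in Xcr1/Clec9a cells, with all 24 in 1 cell of the library labelled WT. Il12a, Il10 and Il23a had no UMI in the 85 and 74 cells, and Il6 had 3 and 4. Of the NF-κB genes, 5 of 16 compared were past the limit in Ccr7/Fscn1 cells (Relb, Nfkb2, Nfkbia, Nfkbib, Traf1) and 4 in Cd209a cells (Tnip3, Tnfaip3, Nfkbid, Nfkbiz), against 6.49% and 3.36% of all genes. With all members Icam1 took the place of Traf1 in the former, and Tnfaip3 was no longer past it in the latter. The interferon-stimulated genes (3 of 23 compared), pattern receptors (3 of 23) genes of gut tolerance such as those of retinoic acid synthesis (3 of 13) and migration receptors beyond Ccr7 (1 of 12, Gpr183) were mostly too low to compare.

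Siglech UMIs occurred in 1 of the 88 members labelled WT, a cell that also held Clec9a, and in 0 of 88 labelled STK25 wKO, where a floor of 3 cells allows a share of cells with a Siglech UMI of up to 3.41% (exact upper bound 4.11%). This limits cells with a captured UMI and not cells that express the gene. Of 22 genes of plasmacytoid cells 5 could be compared between the libraries without the 17 cells, and 0 were above 0, against 47.2% of all genes; with all members 3 of 6 were, against 50.5%. Tcf4, a transcription factor gene, turned with the set, at a log2 ratio (1 CPM added) of -1.35 without and 1.71 with the 17 cells. With 1 Siglech cell these counts do not describe plasmacytoid cells. The list members Irf8 and Mpeg1 were past the limit upward in the Xcr1/Clec9a cells of both libraries, against 4.34% of all genes. The 9 and 6 cells with none of the group genes could reach the marker sum only through Flt3 and Zbtb46. Their levels of Flt3, 322 and 299 CPM, and of Zbtb46, 225 and 411 CPM, therefore follow from the rule. H2-Ab1 was at 7069 and 5273 CPM, and these cells were left without a name.

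Promoter sequences are shown for 4 genes that the groups turn on, picked after the motif matches were seen, as were the 3 motifs marked, of 6 searched: Nfkb2 for maturation, Tlr3 for the Xcr1/Clec9a cells, Cd209a for its own group, and Apol7c, which was among the leading genes of the Ccr7/Fscn1 cells and had the lowest ratio of STK25 wKO over WT among the genes compared without the 17 cells. Each is 250 bases before and 50 after a RefSeq start site on GRCm38.p6, written 5′ to 3′ on the gene's strand, and matches to 3 motifs searched on both strands stand in capitals: the κB motif (GGGA and TTCC with any 2 bases between), the ETS-IRF composite (GGAA and GAAA with any 2 between) and the interferon response core (GAAA and GAAA with any 2 between); the last pair share an end and can overlap. Nfkb2 (chr19:46305445-46305744, + strand), the start of 3 listed with the most matches, held 2 κB matches, Tlr3 (chr8:45410331-45410630, - strand) held 1, Cd209a (chr8:3748935-3749234, - strand) held 1 ETS-IRF match and Apol7c (chr15:77533266-77533565, - strand) held 2 interferon response matches.
Nfkb2: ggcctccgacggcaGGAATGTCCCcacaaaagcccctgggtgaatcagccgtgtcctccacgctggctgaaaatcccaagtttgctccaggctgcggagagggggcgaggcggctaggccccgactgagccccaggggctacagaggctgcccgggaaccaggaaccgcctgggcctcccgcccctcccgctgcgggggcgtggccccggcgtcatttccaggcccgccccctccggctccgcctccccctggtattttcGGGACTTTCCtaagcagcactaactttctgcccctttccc
Tlr3: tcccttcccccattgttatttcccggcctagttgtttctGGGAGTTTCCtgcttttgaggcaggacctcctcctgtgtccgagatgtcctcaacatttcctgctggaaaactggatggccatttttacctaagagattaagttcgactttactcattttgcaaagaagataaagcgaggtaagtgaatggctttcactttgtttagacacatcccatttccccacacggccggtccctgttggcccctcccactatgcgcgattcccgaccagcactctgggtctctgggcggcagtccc
Cd209a: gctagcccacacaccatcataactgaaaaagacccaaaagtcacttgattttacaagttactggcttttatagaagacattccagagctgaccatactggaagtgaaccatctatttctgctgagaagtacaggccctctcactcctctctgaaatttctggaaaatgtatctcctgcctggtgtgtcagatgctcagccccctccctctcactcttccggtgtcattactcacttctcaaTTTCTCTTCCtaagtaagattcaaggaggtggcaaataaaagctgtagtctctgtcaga
Apol7c: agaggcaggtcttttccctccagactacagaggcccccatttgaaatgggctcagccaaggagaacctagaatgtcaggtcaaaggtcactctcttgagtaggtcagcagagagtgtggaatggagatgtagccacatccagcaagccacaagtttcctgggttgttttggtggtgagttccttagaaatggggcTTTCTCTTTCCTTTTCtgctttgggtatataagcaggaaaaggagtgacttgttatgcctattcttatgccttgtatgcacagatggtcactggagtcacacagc

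Over all 32851 promoters of the table, 1.47% held the κB motif, 2.72% the ETS-IRF composite and 3.44% the interferon response core. Of the 32 maturation genes 24 were in the table, with 30 promoters, of which 3 held κB (those of AW112010 and Nfkb2), 1 the composite (Samsn1) and 1 the response core (Apol7c). Of the 12 leading genes of the Cd209a cells 10 were in the table, where Cd209a and Cybb held the composite, Cybb the response core and none κB. The κB motif was in 0 of 16 promoters of the leading genes of the Ccr7/Fscn1 cells, in 0 of 7 of the genes that define cells and groups, and in 1 of 11 of the leading genes of the Xcr1/Clec9a cells (Tlr3). The 3 motifs not marked were GGG and TTTCC with any 2 bases between, GGG and TTCC with any 3 between, and an AP-1 motif (TGA and TCA with any 1 between), which 1.63%, 5.56% and 7.81% of all promoters held; among the 16 promoters of the leading genes of the Ccr7/Fscn1 cells they were in 0, 0 and 2 (both of Tmcc3). The matches describe letters in these windows only, and no binding was measured.

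The libraries were then set against each other, with UMIs summed over the dendritic cells of each. Over all members 3952 genes could be compared (at least 50 UMIs in all and 20 CPM in 1 library), of which 251, or 6.35%, were at least 1 higher on the log2 scale (1 CPM added) in the library labelled STK25 wKO and 148, or 3.74%, at least 1 lower. Among the 10 genes that were highest there were the collagen genes Col1a1, Col1a2 and Col3a1, the collagenase gene Mmp13, Igfbp3, the endothelial gene Cd93, the cytokine genes Tslp and Csf3, and the chemokine gene Ccl2. Mmp13 had 0 and 314 UMIs, at least 94.7-fold more against a floor of 3 UMIs, in 2 cells; Ccl2 had 3 and 606 UMIs, the latter in 5 cells. A single cell held 313 of the Mmp13 UMIs, and the highest cell for Ccl2 held 595. The 17 cells with vessel or stromal RNA held most of this: without them Mmp13 stood at 1 UMI, Ccl2 at 1 and Col1a1 at 2 in the library labelled STK25 wKO.

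Without those cells the picture turned to the lower side. Of 3161 genes compared, 58, or 1.83%, were at least 1 higher in the library labelled STK25 wKO and 163, or 5.16%, at least 1 lower, with a median of -0.036 over all genes. Apol7c, an apolipoprotein L gene induced in dendritic cells, was the lowest: 151 and 16 UMIs, or 289 and 35 CPM, and, without added CPM, a log2 ratio with its interval of -3.04 (-3.89 to -2.30). Ratios below are of this kind. Most of it lay in the Ccr7/Fscn1 cells, with 142 and 14 UMIs in 11 and 4 of 24 cells, a log2 ratio of -3.54 (-4.45 to -2.75) and of -3.68 with the highest cell of each library left out. Epsti1, an interferon-induced gene, followed the same course, with 273 and 24 UMIs in the Ccr7/Fscn1 cells (-3.71, -4.37 to -3.10) but 35 and 34 in the Xcr1/Clec9a cells (0.17, -0.56 to 0.89). In the same libraries Epsti1 was also lower in T cells, at 232 and 114 CPM, and in C1q macrophages, at 188 and 118 CPM.

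The other genes lowest in the library labelled STK25 wKO were Pakap, Cdkal1, Rnf150, Aff3, Med13, Plpp1, Pid1 and Grap2, an adaptor gene of antigen receptor signalling. Aff3, a gene of transcription elongation, had 65 and 13 UMIs, in 37 of 85 and 6 of 74 cells, and Pid1 147 and 32 UMIs. Several were lower in the other classes too: Aff3 was at 338 and 40.7 CPM in T cells and 1036 and 313 CPM in B cells, and Cdkal1 at 99.7 and 45.4 and 151 and 50.3 CPM. Med13 was at 218 and 69.8 CPM in B cells but differed little in T cells, at 96.4 and 80.7 CPM. Lower values of these genes were thus not particular to dendritic cells, for Med13 as against B cells only. Pid1 differed from them, at 414 and 503 CPM in C1q macrophages against 1018 and 109 CPM in Cd209a cells and 246 and 93.2 CPM in Xcr1/Clec9a cells. Whether dissociation, RNA quality or chemistry set such library-wide differences was not tested. With all members, Ccl21a, Nfatc2, Icosl and Plxnc1 were also among the 10 lowest; the 56 Ccl21a UMIs labelled WT came from 1 cell.

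The genes highest in the library labelled STK25 wKO without those cells were Xcl1, S100a8, S100a9, Ube2c, Ccl17, Cyp26b1, Hist1h2ae, Cxcl2, Apoe and Muc2. Several of them also differed in cells that should not make them, there by more CPM than in dendritic cells. As a ratio the difference was larger in T cells for S100a8 and S100a9, and not for Cxcl2. S100a8 was at 7.65 and 116 CPM in dendritic cells and 37.4 and 914 CPM in T cells, S100a9 at 13.4 and 188 and 79.4 and 1242 CPM, and Cxcl2 at 84.2 and 348 and 246 and 914 CPM. All 53 Xcl1 UMIs labelled STK25 wKO lay in 1 cell, and of the 51 UMIs of Ube2c, a gene of dividing cells, 24 and 18 lay in a pair of cells. Ccl17 was different: it was at 0.656 and 1.57 CPM in T cells, 6.15 and 0 CPM in B cells and 16.9 and 21.8 CPM in C1q macrophages, and at 122 and 797 CPM in dendritic cells. Its UMIs were found in 12 of 85 and 28 of 74 cells. Within the groups it had 20 and 248 UMIs in Ccr7/Fscn1 cells (3.43, 2.78 to 4.17), 20 and 62 in Xcr1/Clec9a cells (1.84, 1.09 to 2.65) and 20 and 40 in Cd209a cells (1.24, 0.43 to 2.09), higher in all 3 in the library labelled STK25 wKO. The highest cell held 130 of the 248 UMIs in Ccr7/Fscn1 cells, and without the highest cell of each library the log2 ratio there was 4.41. Cyp26b1, which breaks down retinoic acid, lay almost wholly in the Xcr1/Clec9a cells, with 11 and 47 UMIs in 4 and 11 cells, a log2 ratio of 2.30 (1.34 to 3.40).

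**Figure D5:**
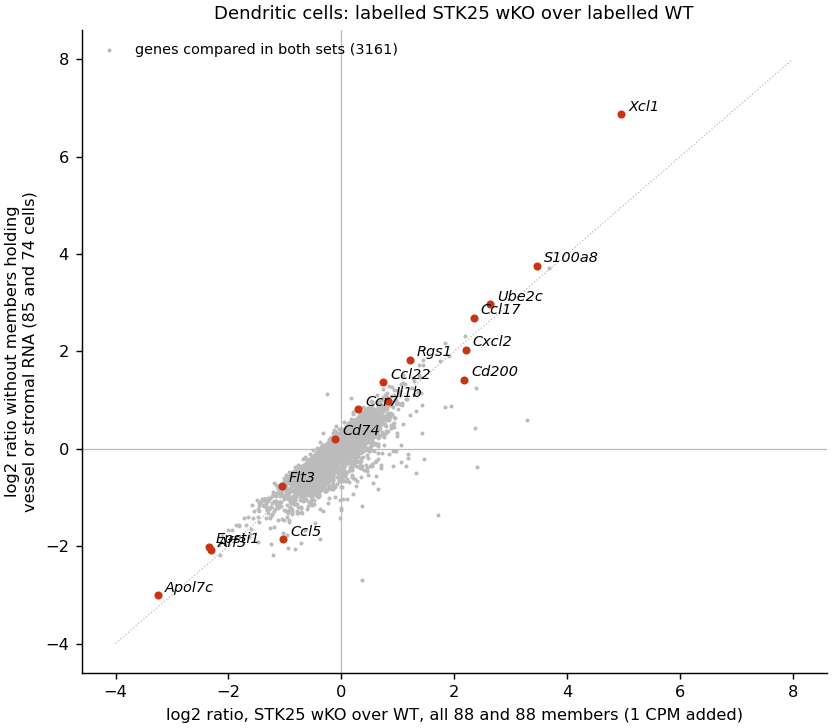
Log2 ratio, STK25 wKO over WT (1 CPM added), of summed UMIs in dendritic cells for the 3161 genes compared in both sets, with all members (horizontal) and without members holding vessel or stromal RNA (vertical); named genes are in red and the dotted line marks equal ratios. Apol7c, Aff3 and Epsti1 lie low and Xcl1, S100a8 and Ccl17 high on both axes; genes such as Mmp13 and Col1a1 are absent because too few UMIs remained without those cells.

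Within the Ccr7/Fscn1 cells the maturation genes did not differ as 1 block. Ccr7 had 161 and 250 UMIs, in 20 of 24 cells of each library, a log2 ratio of 0.44 (0.15 to 0.73), whereas Fscn1 had 226 and 131 UMIs, in 20 and 19 cells, a ratio of -0.98 (-1.31 to -0.67). Both define the group. Ccl22 was higher in the library labelled STK25 wKO, with 64 and 180 UMIs (1.29, 0.87 to 1.73), as was Cd200 with 13 and 38 (1.35, 0.41 to 2.38). Ccl5 was lower, with 379 and 92 UMIs (-2.24, -2.59 to -1.91), but 1 cell held 238 of the 379, and the ratio without the highest cells was -1.62. Icosl, with 30 and 7 UMIs (-2.30, -3.73 to -1.08), Il15, with 24 and 5 (-2.46, -4.21 to -1.04), and Tmcc3, with 139 and 36 (-2.15, -2.72 to -1.61), were lower. Over all dendritic cells, 13 of 27 maturation genes were above 0 and 14 below, with a median of -0.13; 5 were past the limit upward (Ccl17, Ccl22, Pdcd1lg2, Cd200, Ramp3) and 2 downward (Apol7c, Nudt17), beside 1.83% and 5.16% of all genes. With all members 10 of 28 were above 0 and 18 below, with Ccl17 and Cd200 past the limit upward and Apol7c and Nudt17 downward, beside 6.35% and 3.74%. Ccl22 turned to -0.067 without Fscn1 and Siglech in the marker sum.

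Among Cadm1, Wdfy4 and Irf8, Cadm1 alone was past the limit downward in the Xcr1/Clec9a cells of the library labelled STK25 wKO. Cadm1 had 174 and 66 UMIs (-1.19, -1.62 to -0.77), in 23 of 40 and 16 of 32 cells, Wdfy4 550 and 264 (-0.85, -1.07 to -0.64) and Irf8 458 and 297 (-0.42, -0.63 to -0.20). Clnk, an adaptor gene of the same list, singled out after its values were seen, had 29 and 4 UMIs (-2.65, -4.62 to -1.14). It was too low to be among the genes compared over all dendritic cells. Itgae did not follow, at 0.11 (-0.26 to 0.47), and of the genes that define the group Xcr1 was at 0.35 (-0.31 to 1.00) and Clec9a at -0.50 (-0.98 to -0.035). Over all dendritic cells 4 of 13 cDC1 genes were above 0 and 9 below, with a median of -0.18, and Cadm1 alone was past the limit; with all members 1 of 13 was above 0 and 3 (Cadm1, Wdfy4, Cd36) were past the limit downward. Over all genes 47.2% were above 0, and 50.5% with all members. Flt3, of the rule, was lower in both the Xcr1/Clec9a cells, -0.82 (-1.36 to -0.30), and the Ccr7/Fscn1 cells, -0.83 (-1.56 to -0.13).

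Over all dendritic cells none of the 12 class II genes was past the limit between the libraries; 6 were above 0 and 6 below, or 2 and 10 with all members. H2-Ab1 stood at 6207 and 6983 CPM, with a ratio of 0.17 (0.099 to 0.24), and Cd74, the invariant chain gene of the rule, at 17565 and 20265 CPM, 0.21 (0.16 to 0.25). With all members both turned, to -0.16 (-0.23 to -0.086) and -0.11 (-0.15 to -0.065). In the Ccr7/Fscn1 cells alone H2-Ab1 was higher in the library labelled STK25 wKO, with 244 and 597 UMIs in 16 and 18 of 24 cells (1.09, 0.88 to 1.31, and 1.07 without the highest cells), and it was at -0.0035 (-0.20 to 0.19) in Cd209a cells. In T cells thinned to 1000 UMIs, H2-Ab1 was detected in 5.75% and 9.75% of cells and Cd74 in 16.9% and 34.7%. What part RNA from outside the cell took in the dendritic cell values was not tested. No class I gene of 14 was past the limit; with all members 1 of 15, Nlrc5, was past it downward, at -1.06.

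Il1b was higher in the library labelled STK25 wKO over all dendritic cells, at 587 and 1165 CPM (0.99, 0.78 to 1.20), in the Xcr1/Clec9a cells (1.75, 1.24 to 2.28) and in the Ccr7/Fscn1 cells (1.79, 1.34 to 2.26), and was close to even in the Cd209a cells that carried most of it per cell (-0.16, -0.48 to 0.17). It was likewise higher in T cells, at 91.8 and 284 CPM, and in B cells, at 33.8 and 518 CPM, which should lack it, and in the monocyte class, at 2071 and 4969.7 CPM, so that RNA from outside the cell and Il1b made by them could not be told apart. Past the limit, beside 1.83% of all genes upward and 5.16% downward, were Osm of 5 cytokine genes (upward), Tnfsf9, Pdcd1lg2 and Cd200 (upward) and Icosl (downward) of 11 costimulatory and checkpoint genes, and Ccl17, Ccl22 and Cxcl2 (upward) and Ccl5 (downward) of 8 chemokine genes. With all members, beside 6.35% and 3.74%, these were 0 of 7 cytokine genes, Cd200 upward and Icosl downward of 12 costimulatory genes, and 6 upward (Ccl2, Ccl17, Cxcl1, Cxcl2, Cxcl9, Cxcl10) and Ccl5 downward of 11 chemokine genes. Of 16 NF-κB genes 11 were above 0, beside 47.2% of all genes, and 1, Nfkbia, was past the limit upward; with all members 11 of 18 were above 0, and Nfkbia, Tnip1 and Tnfaip2 were past it. Of the 21 cell-cycle genes 9 could be compared, and 7 of these were above 0, beside 47.2% of all genes. Birc5 and Ube2c were past the limit upward, beside 1.83% of all genes, but most Ube2c UMIs lay in a pair of cells. With all members 7 of 10 were above 0, and Birc5 and Ube2c were again past it. The macrophage gene Apoe, past the limit upward in dendritic cells at 30.6 and 118 CPM, was at 82 and 277 CPM in T cells.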

How the data were processed

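The deposited counts were UMIs per gene and barcode, made by the authors from 10x 3′ reads with Cell Ranger (version 7.1.0 in the matrix header) on mm10; Seurat is named in the submitters' processing notes without a role. No batch is given in the labels. All 32285 listed genes were read, and a barcode was kept if it had 200 genes or more and mitochondrial UMIs did not pass 25%. Doublets were left in; Scrublet (in Scanpy 1.11.5) marked 0% of the cells by its automatic threshold, which was taken as not having worked, and in an alternative the 1204 and 1542 highest scores were removed, the number expected at 0.8% per 1000 cells. UMIs were summed over cells per library and given per 1000000. With 1 library per group there was no test, and a gene was called past the limit at a log2 ratio of at least 1 or at most -1 with 1 CPM added. Intervals were Poisson, Clopper-Pearson or conditional binomial. The calculation was tested on simulated data.

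C1q macrophages, monocytes, T cells and B cells were classes of cells set by marker counts. The named genes were those of the rule, the 10 largest log2 ratios each way, the 12 leading genes of each group by the lower of the 2 ratios within libraries, and from each list up to 6 members with the most UMIs and those past the limit; ribosomal and mitochondrial genes, Gm and Rik models, haemoglobins and immunoglobulins were excluded, and other genes named were chosen after their values were seen. The rule, the members and all gene lists were chosen with earlier results of these data known. Clec7a, Mx1 and Mx2 were not analysed here, and a few items that the naming rule covers are not reported here. The analysis used Python 3.11.15, NumPy 2.4.6, SciPy 1.17.1 and pandas 2.3.3, and promoters came from RefSeq (GRCm38.p6).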

Additional observations from a re-analysis of the deposited data

How the results depend on the processing

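The ratio of dendritic cell shares, STK25 wKO over WT, lay between 0.673 and 1.06 over 7 alternatives and its interval included 1 in the report. The share itself was 0.981% labelled WT and 0.797% labelled STK25 wKO in cells of 500 genes or more with mitochondrial UMIs up to 10%, 0.554% and 0.454% with a marker sum of at least 3, 0.278% and 0.187% with cells thinned to 1000 UMIs, and 1.41% and 1.5% of cells with Ptprc; without Fscn1 and Siglech in the sum it was 0.475% labelled STK25 wKO. In that last setting Xcr1/Clec9a cells labelled STK25 wKO were 50% and Ccr7/Fscn1 cells 18.4% and 21.2%. Thinned, Xcr1/Clec9a cells labelled WT were 21.7%, Cd209a cells labelled STK25 wKO 23.8% (8.22% with doublets removed) and Ccr7/Fscn1 cells 52.2% and 28.6%. The genes at least 1 higher labelled STK25 wKO numbered 85 of 3086 without Fscn1 and Siglech, 58 of 3161 without vessel or stromal cells (an alternative chosen after seeing the data) and 3239 of 15421 with no minimum beyond 1 UMI, where 2404 were lower. Ratios that changed sign were Ccl2, -1.08 without vessel or stromal cells; Ccl21a, 2.87 at a marker sum of 3, 2.96 without Fscn1 and Siglech and 1.67 without vessel or stromal cells; H2-Ab1, 0.10, 0.17 without vessel or stromal cells, 0.11 as a mean over cells and 0.0027 with equal subset weights; Cd74, 0.10, 0.21 and 0.20 in the first 3 of these; Ccr7, -0.15 with equal weights; and Ccl22, -0.067 without Fscn1 and Siglech. The cause was not tested. Of the values for single genes and lists, 312 moved little, 53 moved further and 13 changed sign. No paired analysis was possible because there was 1 library per group. The 11 and 12 Cd209a cells give wide intervals.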

Other observations

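Genes chosen to mark other cell types also differed between the groups of dendritic cells, in the cells without vessel or stromal RNA. Il7r, the interleukin 7 receptor gene of the T cell list, was at 206 and 158 CPM (labelled WT and labelled STK25 wKO) in the Ccr7/Fscn1 cells, in 9 and 10 of 24 cells, against 22.4 and 15.7 CPM in the other dendritic cells and 371 and 328 CPM in T cells. The other 15 genes of that list were too low to compare. Cd63, a tetraspanin gene of the macrophage list, was at 884 and 684 CPM in the Ccr7/Fscn1 cells against 42.3 and 66.1 CPM, and Cd68, a lysosomal gene of the same list, at 73.3 and 148 CPM in the Xcr1/Clec9a cells against 36 and 72.5 CPM. Il1r2, the decoy receptor gene for interleukin 1 and part of the neutrophil list, was at 494 and 346 CPM in the Cd209a cells, 57.8 and 346 CPM in the Ccr7/Fscn1 cells and 22 and 72 CPM in the Xcr1/Clec9a cells. These genes were chosen after their values were seen.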
